A study of Mus musculus with 6 samples.

Results

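The 44 genes that the deposited annotation places in the pathway of aminoacyl-tRNA biosynthesis were followed through RNA-seq of mouse intestinal crypts. They are all the rows, of 21878 genes, whose pathway field names that pathway. By textbook role they fall into 21 cytosolic synthetases, of which Gars and Kars also serve mitochondria, 17 mitochondrial synthetases and 6 helper enzymes. The pathway was chosen by FPKM differences between these same groups, with earlier results known, so the counts and medians below describe the genes and are no independent support for a direction.

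Crypts came from C57BL/6 mice in 3 groups of 2 libraries each. AIR + MPLA crypts (replicates 1 and 3) were taken 3 days after abdominal irradiation of mice that also received MPLA, a detoxified bacterial lipid and agonist of TLR4. AIR crypts (replicates 1 and 3) were taken 3 days after abdominal irradiation alone, and Control crypts (replicates 2 and 3) came from mice without irradiation. The sample titles name MPLA, while the treatment field of the same samples does not. No dose of radiation or of MPLA is used here. Whether replicates are separate mice is not in the labels, so the p-values rest on differences among these libraries, which may be technical in origin.

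Aminoacyl-tRNA synthetases join each amino acid to its transfer RNA at the cost of ATP, and the charged tRNA then delivers the amino acid to the ribosome. Cytosol and mitochondria are mostly served by separate nuclear genes, the mitochondrial ones carrying the suffix 2. Several cytosolic enzymes are held together in a multisynthetase complex by scaffold proteins. Crypt cells of the intestine divide fast and make much protein, and amino acid shortage and other stress induce many cytosolic synthetase genes through the transcription factor ATF4. Helper enzymes finish what a synthetase begins: they formylate methionine on the mitochondrial initiator tRNA, turn glutamate on tRNA into glutamine in mitochondria, or make selenocysteine on its tRNA.

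Values are FPKM, fragments per kilobase of transcript scaled to library size, so levels of different genes can be compared. FPKM totals lay between 381669 and 492247 per library, and between 9842 and 10179 genes reached 1 FPKM. The number of reads is unknown. One library needs care: the values of Control replicate 2 differ between its single-sample file and the series table. Its own file correlated with Control replicate 3 at r = 0.972 across genes, which are not independent replicates, and the series-table column at r = 0.997. The own file was used. Counts over the pathway and its classes, and over most of the other gene lists in AIR against Control, are also given with Control replicate 2 taken from the series table, a fit that calls far more genes overall. Fold changes are differences of group means of log2(FPKM + 1), which understates the change of low genes. A gene is called higher or lower where the Benjamini-Hochberg adjusted p of limma over all 10415 tested genes is under 0.05. All 44 genes of the pathway passed the filter of 1 FPKM in at least 2 of the 6 libraries.

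The defining markers of crypt epithelium were present in every library. The 7 markers (Epcam, Krt8, Krt18, Krt19, Cdh1, Vil1 and Cdx2) summed to 3580 and 4085 FPKM in AIR + MPLA libraries, 2812 and 2519 in AIR, and 3373 and 3552 in Control. Markers of T cells and intraepithelial lymphocytes were summed over 8 genes. The sums were 21.9 and 32.8 FPKM in AIR + MPLA libraries, 33.8 and 43.7 in AIR, and 132.4 and 199.6 in Control. Of the other marker lists, 0 of 5 fibroblast and 0 of 3 endothelial genes passed the filter on low values. For B cells 2 of 5 passed, for myeloid cells 3 of 6, for erythrocytes 2 of 4 and for pancreatic acini 2 of 5. In bulk RNA, fewer cells of a type and less RNA per cell cannot be told apart.

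Promoter sequences were read for the genes in the RefSeq table of GRCm38.p6, which holds 33 promoters of 32 of the 44 genes, each from 250 bases before to 50 after the start. They were searched on both strands for the ATF4 response element (TGATGNAA, reverse complement TTNCATCA), the factor named above. It was found in 5 of 14 cytosolic promoters (35.7%), in 0 of 15 mitochondrial promoters and in 2.17% of the 10719 promoters of tested genes. The 5 promoters are shown because they hold the element, with capitals marking the element and the strand of the gene as printed. They are Aars at chr8:111033592-111033891 (plus strand), Gars at chr6:55037751-55038050 (plus), Iars at chr13:49681880-49682179 (plus), Tars at chr15:11399609-11399908 (minus) and Yars at chr4:129189653-129189952 (plus).
Aars: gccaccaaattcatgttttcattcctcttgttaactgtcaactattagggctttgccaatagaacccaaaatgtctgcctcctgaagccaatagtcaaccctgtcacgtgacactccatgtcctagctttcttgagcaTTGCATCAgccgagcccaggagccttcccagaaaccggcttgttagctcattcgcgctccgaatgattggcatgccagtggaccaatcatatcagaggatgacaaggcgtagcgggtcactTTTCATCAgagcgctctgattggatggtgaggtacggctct
Gars: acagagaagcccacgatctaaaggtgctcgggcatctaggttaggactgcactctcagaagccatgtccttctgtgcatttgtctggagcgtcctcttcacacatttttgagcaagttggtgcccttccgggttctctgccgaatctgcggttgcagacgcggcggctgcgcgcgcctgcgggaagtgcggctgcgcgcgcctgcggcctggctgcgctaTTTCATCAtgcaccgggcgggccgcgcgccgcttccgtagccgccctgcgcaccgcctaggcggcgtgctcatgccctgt
Iars: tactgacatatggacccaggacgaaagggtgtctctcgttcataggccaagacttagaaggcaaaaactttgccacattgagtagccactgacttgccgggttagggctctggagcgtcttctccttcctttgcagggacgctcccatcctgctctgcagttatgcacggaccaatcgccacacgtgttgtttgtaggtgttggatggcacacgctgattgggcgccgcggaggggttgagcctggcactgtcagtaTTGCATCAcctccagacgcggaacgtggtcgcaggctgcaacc
Tars: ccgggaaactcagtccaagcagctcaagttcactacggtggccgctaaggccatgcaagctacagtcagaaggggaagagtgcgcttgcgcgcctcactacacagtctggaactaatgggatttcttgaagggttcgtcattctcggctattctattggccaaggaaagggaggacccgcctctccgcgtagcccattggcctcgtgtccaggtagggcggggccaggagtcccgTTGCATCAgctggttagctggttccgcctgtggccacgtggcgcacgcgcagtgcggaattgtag
Yars: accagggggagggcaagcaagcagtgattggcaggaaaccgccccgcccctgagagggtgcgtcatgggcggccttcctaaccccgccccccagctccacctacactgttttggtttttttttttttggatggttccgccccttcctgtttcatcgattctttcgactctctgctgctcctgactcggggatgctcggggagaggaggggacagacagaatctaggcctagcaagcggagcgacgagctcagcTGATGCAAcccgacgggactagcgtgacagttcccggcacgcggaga
Aars holds the element at 2 places. Its window lies wholly inside the span of the gene given below, 111027778 to 111055569 on chromosome 8, and not at the outer start of that span. The same promoters carry an E-box (CACGTG), the site bound by MYC and related factors, in Aars, Iars and Tars, and among other genes of the pathway it is in Farsb and Ears2. It was in 15.2% of the pathway's promoters and 10.3% of those of tested genes. The palindromic NRF1 motif was in 0 of the 33 and in 2.19% of those of tested genes. A match of letters is a description and not a site.

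Summed over the 21 cytosolic synthetases, FPKM averaged 779.7 ± 3.11 in AIR + MPLA, 523.5 ± 8.84 in AIR and 684.2 ± 45 in Control (SD, n = 2 each). The 17 mitochondrial synthetases together reached 198.6 ± 29.5 FPKM in AIR + MPLA, 135.8 ± 12.5 in AIR and 177 ± 0.283 in Control. For the 6 helper enzymes the sum was 44.72 ± 2.25 FPKM in AIR + MPLA, 43.23 ± 1.03 in AIR and 49.77 ± 1.92 in Control. Both synthetase classes were thus at their lowest summed level in AIR, with no overlap between AIR and either other group. Helper enzymes differed less, and their AIR + MPLA and AIR libraries overlapped.

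Among single genes, Nars, the asparaginyl-tRNA synthetase, had the highest mean level of the pathway in every group, at 98.69 FPKM in AIR + MPLA, 69.91 in AIR and 91.65 in Control. Wars2, the mitochondrial tryptophanyl enzyme, had the lowest, at 1.978 FPKM in AIR + MPLA, 1.727 in AIR and 2.207 in Control. The median gene of the cytosolic class stood at 28.88 FPKM in AIR + MPLA, 19.81 in AIR and 25.49 in Control. For the mitochondrial class the median was 7.904 FPKM in AIR + MPLA, 5.308 in AIR and 9.069 in Control.

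**Figure D1:**
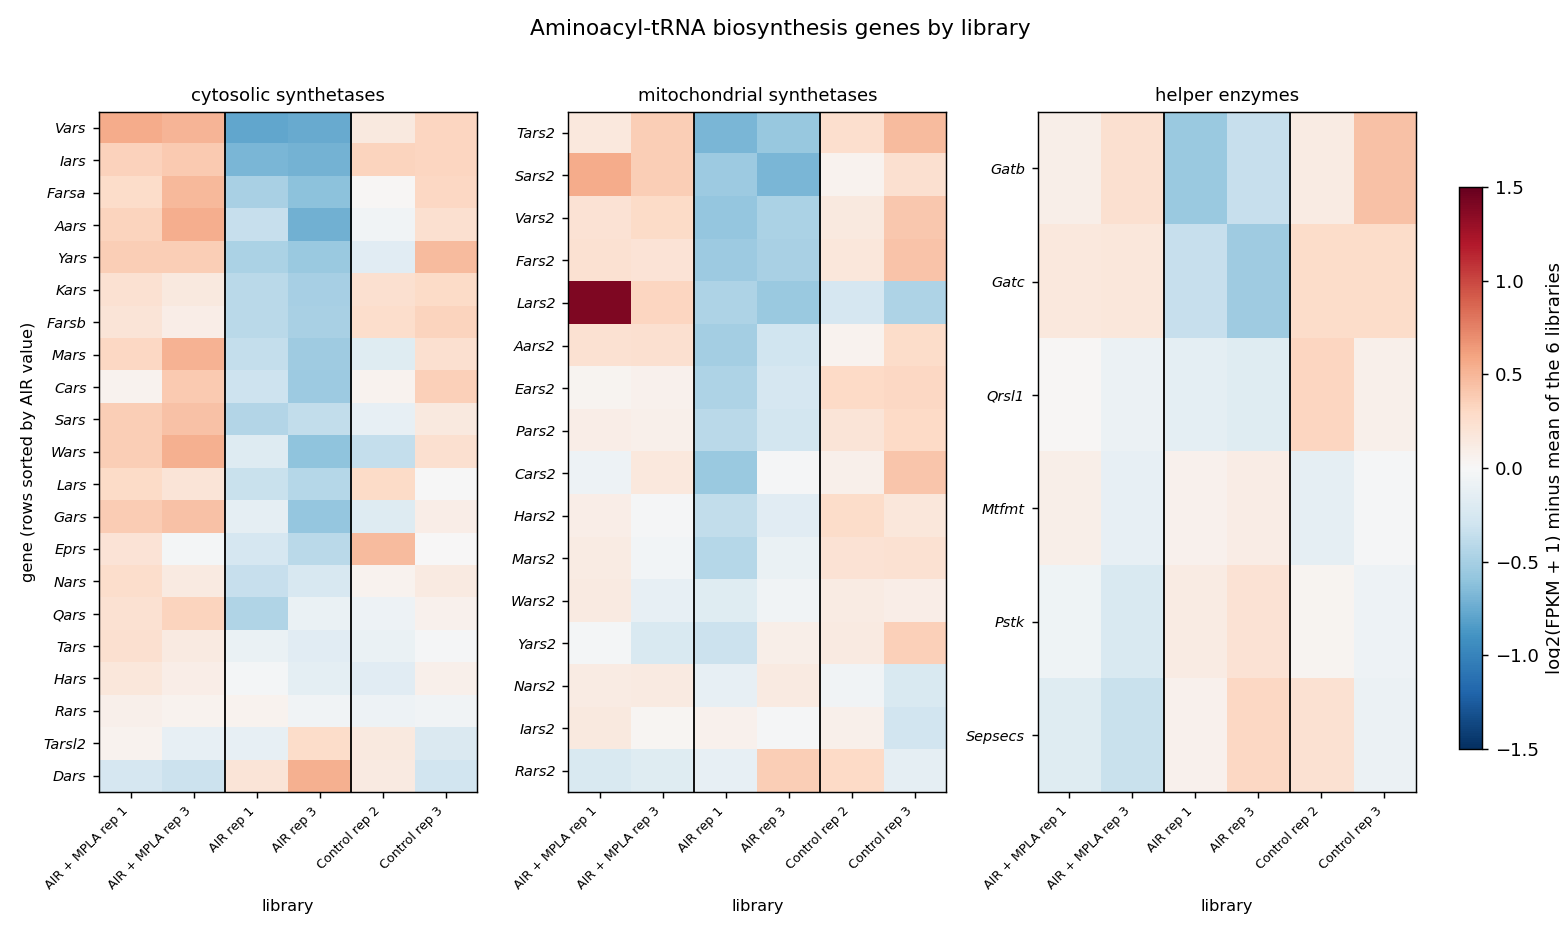
Each row is 1 gene, with 1 gene not shown, and each column 1 library; the colour gives log2(FPKM + 1) minus the gene's mean over the 6 libraries, with cytosolic synthetases, mitochondrial synthetases and helper enzymes in 3 panels. Most synthetases are blue in both AIR libraries and mostly paler or red elsewhere, while Dars is red in both AIR libraries and Lars2 is darkest red in AIR + MPLA replicate 1 (67.5 FPKM).

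AIR was set against Control to see what the pathway looked like 3 days after irradiation. Lower levels in AIR prevailed: 15 of the 44 genes fell, 0 rose and 29 did not pass the test. Over all tested genes, 18.7% were called lower and 8.05% higher. Another 10 genes of the pathway had an unadjusted limma p under 0.05, which made 25 lower and 0 higher. The share of all tested genes under that limit was not counted, so these numbers have no background. In 31 of the 44 genes both AIR libraries lay below both Control libraries and in 4 they lay above, against 41.7% and 22.2% of all tested genes. With Control replicate 2 taken from the series table, 29 genes fell (15 cytosolic, 12 mitochondrial and 2 helper) and 4 rose (Dars, Iars2, Pstk and Sepsecs), where 37.3% of all tested genes were lower and 25% higher. After GC correction of that fit Pstk was called lower instead (log2 fold -0.32, limma adjusted p = 0.0204).

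Of the 21 cytosolic synthetases, 6 fell in AIR (Farsa, Farsb, Iars, Kars, Lars and Vars) and 15 did not pass. Iars, which charges isoleucine within the multisynthetase complex (gene ID 105148, chromosome 13, 49682130 to 49734267 in GRCm38.p6), stood at 10.98 and 10.78 FPKM in the AIR libraries and 23.3 and 23.0 in Control. The groups did not overlap and replicates differed little. Its log2 fold was -1.03 (SE 0.13, limma adjusted p = 0.00734).

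Vars, the valyl-tRNA synthetase (gene ID 22321, chromosome 17, 35000907 to 35016329), had 18.0 and 18.3 FPKM in AIR and 35.2 and 39.8 in Control. Again both AIR libraries were well below both Control libraries. The log2 fold was -1.01 (SE 0.14, limma adjusted p = 0.00836). Farsa and Farsb encode the catalytic and the beta subunit of the cytosolic phenylalanyl enzyme, which works only as an assembly of both. Farsa was at 13.5 and 12.2 FPKM in AIR and 19.5 and 24.2 in Control (log2 fold -0.72). Farsb was at 24.9 and 23.5 FPKM in AIR and 40.3 and 42.1 in Control (log2 fold -0.74). Both subunits fell by about the same amount (limma adjusted p = 0.0248 for Farsa and 0.0136 for Farsb).

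Kars, which supplies lysyl-tRNA to cytosol and mitochondria from 1 gene (gene ID 85305, chromosome 8, 111993439 to 112011354), read 28.7 and 26.9 FPKM in AIR and 45.6 and 47.1 in Control. The groups were far apart (log2 fold -0.72, SE 0.14, limma adjusted p = 0.0149). Lars, the leucyl enzyme, which also serves as a leucine sensor for mTORC1 signalling, was at 9.92 and 9.24 FPKM in AIR and 15.8 and 12.8 in Control. It passed narrowly (log2 fold -0.53, limma adjusted p = 0.0488). Gars, the other gene that serves both compartments, did not pass, and its libraries overlapped: 50.7 and 37.0 FPKM in AIR against 48.7 and 59.9 in Control.

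Several cytosolic genes just missed the threshold. Cars, for cysteine, had a log2 fold of -0.63 (limma adjusted p = 0.0524), Aars, for alanine, -0.62 (0.0533) and Yars, for tyrosine, -0.67 (0.0621). Dars, for aspartate, was the one cytosolic synthetase with a fold above 0.2, at 29.7 and 37.9 FPKM in AIR and 28.4 and 20.9 in Control. Its AIR libraries lay above both Control libraries, 1 of which came close (log2 fold 0.45, limma adjusted p = 0.136). Wars, for tryptophan, whose human counterpart is induced by interferon gamma, was at 31.1 and 23.1 FPKM in AIR and 27.7 and 42.3 in Control. These groups overlapped (log2 fold -0.34, limma adjusted p = 0.312). With Control replicate 2 taken from the series table it passed as lower (log2 fold -0.64, limma adjusted p = 0.00637).

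Mitochondrial synthetases fell in 7 of 17 cases (Aars2, Ears2, Fars2, Pars2, Sars2, Tars2 and Vars2), and 10 did not pass. Tars2, which charges threonine in mitochondria (gene ID 71807, chromosome 3, 95739974 to 95756365), read 3.93 and 4.32 FPKM in AIR and 8.40 and 9.96 in Control. The AIR libraries lay far below Control (log2 fold -0.99, SE 0.16, limma adjusted p = 0.0107). Fars2, a single-chain phenylalanyl enzyme, was at 7.77 and 8.19 FPKM in AIR and 13.5 and 16.2 in Control, a log2 fold of -0.81 (limma adjusted p = 0.0133).

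Vars2, for valine, had 3.73 and 4.05 FPKM in AIR and 6.81 and 8.32 in Control, a log2 fold of -0.80 (limma adjusted p = 0.0151). Sars2, for serine, stood at 5.24 and 4.67 FPKM in AIR and 8.46 and 9.80 in Control, a log2 fold of -0.76 (limma adjusted p = 0.0175). In neither gene did the groups overlap. Ears2, Pars2 and Aars2, for glutamate, proline and alanine, fell by 0.66, 0.59 and 0.57 on the log2 scale, with limma adjusted p of 0.0252, 0.0307 and 0.0423. Ears2 read 1.70 and 2.14 FPKM in AIR and 3.58 and 3.62 in Control. For Pars2 the values were 2.53 and 2.83 in AIR and 4.33 and 4.73 in Control. Aars2 was at 3.13 and 3.79 FPKM in AIR and 5.11 and 6.12 in Control. All 3 are low transcripts with AIR below Control in every library. The mitochondrial genes with folds above 0 were Iars2, Nars2 and Rars2, at 0.13, 0.15 and 0.04, and the libraries of each overlapped.

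Among helper enzymes, 2 of 6 fell. Gatb and Gatc encode subunits of the mitochondrial amidotransferase that turns glutamyl-tRNA into glutaminyl-tRNA. Gatb had 1.62 and 2.02 FPKM in AIR and 3.20 and 4.22 in Control, a log2 fold of -0.74 (limma adjusted p = 0.028). Gatc had 7.93 and 6.83 FPKM in AIR and 12.7 and 12.7 in Control, a log2 fold of -0.71 (limma adjusted p = 0.0161). The catalytic subunit of the same enzyme, Qrsl1, was also below Control in both AIR libraries without being called (log2 fold -0.36, limma adjusted p = 0.121). Mtfmt, the formylating enzyme, and the selenocysteine genes Pstk and Sepsecs had folds of 0.16, 0.19 and 0.12, none of them called. The fold of Pstk was -0.16 after correction for GC content.

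The median log2 fold was -0.475 over cytosolic, -0.52 over mitochondrial and -0.12 over helper genes, against -0.131 over all tested genes. Median-ratio scaling set the median of all genes to 0.0205, and relative to that the synthetase medians lay at -0.335 and -0.383. Helper genes lay at 0.0173 relative to all genes in that scaling. After GC correction they lay at -0.177 relative to all genes, with cytosolic genes at -0.26 and mitochondrial genes at -0.366. Leaving out a library lowers the power of a design with 2 per group. Calls in the pathway changed with the library left out, also with an AIR + MPLA library outside this comparison, so only medians are given here. Without AIR replicate 1 and without AIR replicate 3 they stayed below 0, at -0.559 and -0.452 over cytosolic genes and -0.361 and -0.649 over mitochondrial genes. All tested genes had medians of -0.13 and -0.132 in these fits. Without Control replicate 2 the medians were -0.551 (cytosolic), -0.54 (mitochondrial) and -0.124 (all genes). Without Control replicate 3 they were -0.345, -0.476 and -0.144. Markers of crypt epithelium fell in 3 of 7 cases (Cdx2, Cdh1 and Vil1) and markers of T cells in 7 of 7 tested genes in the same comparison. After GC correction 1 of 7 epithelium markers was called lower. Their part in the result was not tested.

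AIR + MPLA was set against AIR to see what MPLA did to the pathway after irradiation. The AIR libraries are the same as above, so low values there enter both comparisons. Higher levels with MPLA prevailed: 22 of the 44 genes rose, 1 fell and 21 did not pass. The shares over all tested genes were 19.5% higher and 9.9% lower. Both AIR + MPLA libraries lay above both AIR libraries in 32 of the 44 genes and below them in 4, against 47.5% and 29.7% of all tested genes. With Control replicate 2 taken from the series table, whose values enter only through the spread, 29 rose (17 cytosolic, 10 mitochondrial and 2 helper) and 3 fell (1 cytosolic and 2 helper), where 34.4% of all tested genes were higher and 20.6% lower.

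Cytosolic synthetases rose in 14 of 21 cases, and 1 fell. Vars read 46.8 and 45.4 FPKM with MPLA and 18.0 and 18.3 in AIR. The groups were far apart, and the log2 fold of 1.30 (SE 0.14, limma adjusted p = 0.0153) exceeded that of every other cytosolic gene. Iars had 23.4 and 24.2 FPKM with MPLA and 10.98 and 10.78 in AIR (log2 fold 1.06, SE 0.13, limma adjusted p = 0.0153). The alanyl enzyme Aars (gene ID 234734, chromosome 8, 111027778 to 111055569) was at 25.8 and 29.9 FPKM with MPLA and 15.7 and 11.9 in AIR. It did not overlap between the groups either (log2 fold 0.97, limma adjusted p = 0.0193).

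Both phenylalanyl subunits rose: Farsa had 23.6 and 27.3 FPKM with MPLA and 13.5 and 12.2 in AIR (log2 fold 0.93, limma adjusted p = 0.0175). Farsb had 38.2 and 35.7 FPKM with MPLA and 24.9 and 23.5 in AIR (log2 fold 0.59, limma adjusted p = 0.0263). Mars, which charges methionine and is part of the complex, stood at 14.9 and 17.4 FPKM with MPLA and 8.98 and 7.87 in AIR. All 3 genes had both AIR + MPLA libraries above AIR, and the log2 fold of Mars was 0.86 (limma adjusted p = 0.0231). Sars, for serine, had 34.6 and 36.5 FPKM with MPLA and 19.3 and 20.3 in AIR (log2 fold 0.81, limma adjusted p = 0.0182). Kars reached 45.02 and 42.5 FPKM with MPLA and had 28.7 and 26.9 in AIR (log2 fold 0.63, limma adjusted p = 0.0229). Wars, the interferon-responsive member, was at 46.5 and 52.3 FPKM with MPLA and 31.1 and 23.1 in AIR. Its groups did not overlap (log2 fold 0.86, limma adjusted p = 0.0389), but it missed the threshold under median-ratio scaling (log2 fold 0.70, limma adjusted p = 0.0768).

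The other cytosolic genes that rose were Yars, Gars, Cars, Lars and Nars, with log2 folds of 0.88, 0.77, 0.64, 0.62 and 0.49. Dars was the one gene of the pathway that fell, at 21.5 and 20.3 FPKM with MPLA and 29.7 and 37.9 in AIR. It is also part of the complex. Its AIR libraries stood above both other groups (log2 fold -0.66, SE 0.20, limma adjusted p = 0.0469), and after correction for GC content the log2 fold was -0.08 (limma adjusted p = 0.712).

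Of the mitochondrial synthetases, 6 of 17 rose (Aars2, Fars2, Lars2, Sars2, Tars2 and Vars2) and 11 did not pass. Sars2 (gene ID 71984, chromosome 7, 28741957 to 28753879) had 12.4 and 10.7 FPKM with MPLA and 5.24 and 4.67 in AIR. The 2 groups lay far apart (log2 fold 1.08, SE 0.16, limma adjusted p = 0.0153). Tars2 had 7.84 and 9.22 FPKM with MPLA and 3.93 and 4.32 in AIR (log2 fold 0.89, limma adjusted p = 0.0176). For Vars2 the values were 7.18 and 7.60 FPKM with MPLA and 3.73 and 4.05 in AIR (log2 fold 0.78, limma adjusted p = 0.0197). Fars2 read 14.1 and 13.8 FPKM with MPLA and 7.77 and 8.19 in AIR (log2 fold 0.74, limma adjusted p = 0.0199). Aars2 was at 5.89 and 5.94 FPKM with MPLA and 3.13 and 3.79 in AIR (log2 fold 0.64, limma adjusted p = 0.0311). None of these 5 genes overlapped between the groups.

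Lars2, the mitochondrial leucyl enzyme (gene ID 102436, chromosome 9, 123366927 to 123462675), had the largest log2 fold of the pathway and the widest spread. It was at 67.5 and 31.3 FPKM with MPLA, 17.7 and 16.6 in AIR, and 20.8 and 17.8 in Control. AIR + MPLA replicate 1 was more than 30 FPKM above replicate 3. The log2 fold against AIR was 1.38 (SE 0.33, limma adjusted p = 0.0264), and it was 0.84 without AIR + MPLA replicate 1 (limma adjusted p = 0.1) and 1.92 without replicate 3 (limma adjusted p = 0.144).

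Gatb and Gatc rose among the 6 helper enzymes. Gatb read 3.09 and 3.52 FPKM with MPLA and 1.62 and 2.02 in AIR (log2 fold 0.61, limma adjusted p = 0.0439). Gatc read 11.6 and 11.7 FPKM with MPLA and 7.93 and 6.83 in AIR (log2 fold 0.60, limma adjusted p = 0.0266). Sepsecs and Pstk, of selenocysteine synthesis, were below AIR in both AIR + MPLA libraries without being called, with log2 folds of -0.45 and -0.32. After GC correction the fold of Pstk was 0.28, also not called.

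**Figure D2:**
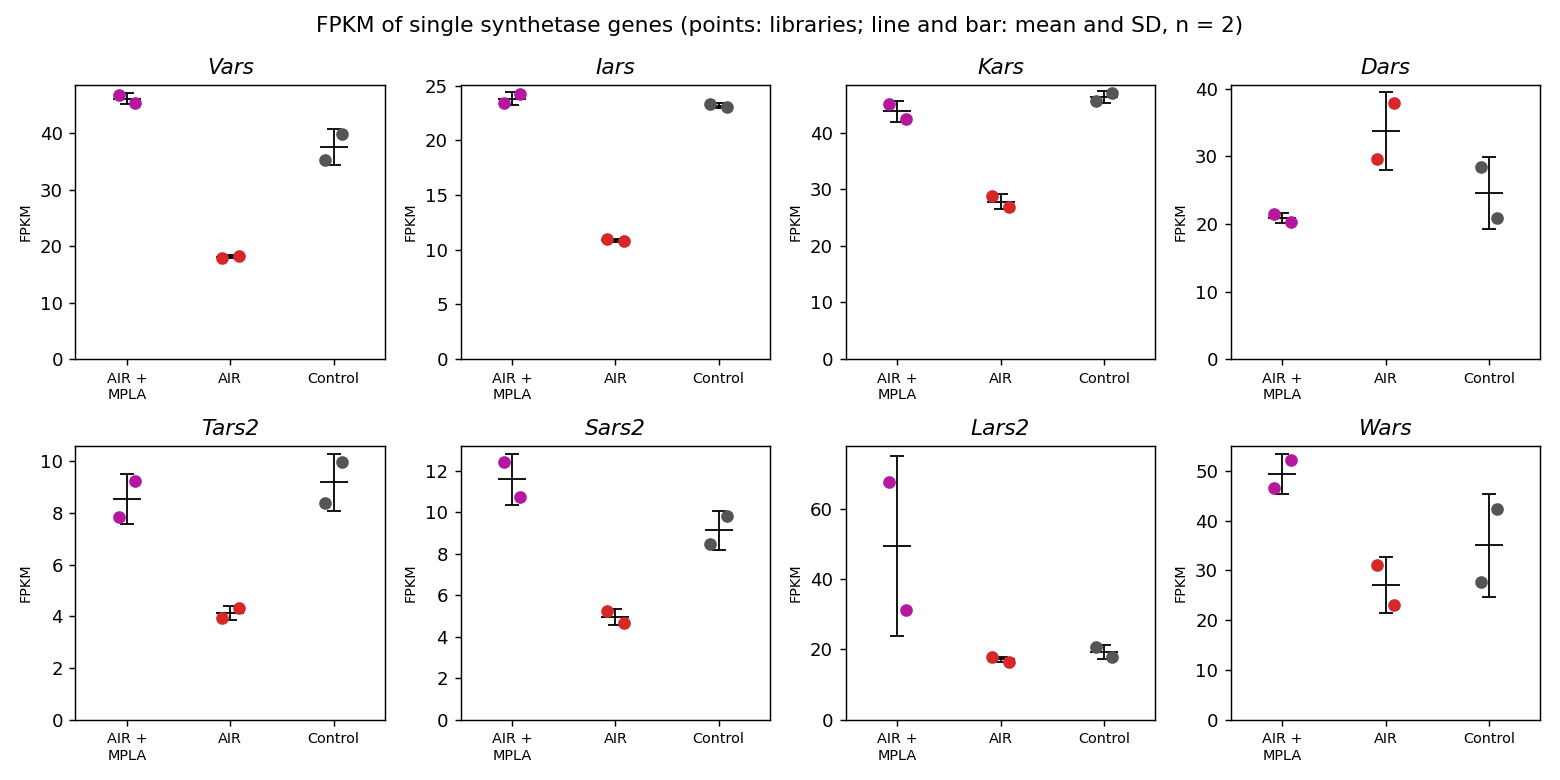
FPKM of 8 synthetase genes in AIR + MPLA, AIR and Control, with 1 point per library, a line at the mean and a bar for the SD (n = 2). Vars, Iars, Kars, Tars2 and Sars2 are lowest in AIR, Dars is highest there, and Lars2 has 1 AIR + MPLA library at 67.5 FPKM.

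The median log2 fold was 0.63 over cytosolic, 0.35 over mitochondrial and 0.01 over helper genes, against 0.146 over all tested genes. Relative to the all-gene median the synthetase classes lay at 0.489 and 0.206, and under median-ratio scaling at 0.465 and 0.196. Helper genes lay at -0.131 relative to all genes as deposited, -0.142 under median-ratio scaling and -0.141 under upper-quartile scaling. After GC correction they lay at 0.141 relative to all genes, with cytosolic genes at 0.447 and mitochondrial genes at 0.232. Under median-ratio scaling 11 genes of the pathway rose, and among all genes 1078 were called higher and 1453 lower, where 2029 and 1031 were called without it. Leaving out any one of AIR + MPLA replicate 1, AIR + MPLA replicate 3, AIR replicate 1 or AIR replicate 3 left 0 called genes, in the pathway and among all tested genes, while the medians stayed between 0.578 and 0.679 over cytosolic and between 0.212 and 0.511 over mitochondrial genes. The all-gene median lay between 0.129 and 0.15 in those fits. Relative to it the cytosolic medians lay between 0.449 and 0.535. The mitochondrial medians ran from 0.0619 without AIR replicate 1 to 0.383 without AIR replicate 3, so their distance from all genes depended on the library left out. Leaving out either Control library left the medians at 0.63 and 0.35. In the same comparison 4 of 7 markers of crypt epithelium rose (Cdx2, Krt19, Vil1 and Cdh1) and 0 of 7 tested T cell markers were called. After GC correction 0 of 7 epithelium markers were called. Their part in the result was not tested.

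AIR + MPLA was also set against Control, to see where the pathway stood in irradiated crypts with MPLA relative to crypts without irradiation. No gene of the pathway passed (limma adjusted p), while 2 had an unadjusted p under 0.05, both higher. That count has no share over all tested genes to stand against. Over all tested genes 0.643% were called higher and 0.835% lower, 1.48% in all. The groups did not overlap in 15 genes that were higher and 12 that were lower, against 25% and 24.5% of all tested genes. With Control replicate 2 taken from the series table, 1 gene rose, Iars2 (log2 fold 0.40), where 5.54% of all tested genes were higher and 5.11% lower. A missed threshold does not show equal levels.

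The median log2 fold was 0.18 over cytosolic genes, with 17 of 21 above 0, and -0.11 over mitochondrial genes, with 5 of 17 above 0. All tested genes had a median of -0.0288. With Control replicate 2 taken from the series table the medians were 0.0782 and -0.167, and without Control replicate 3 they were 0.286 and -0.0302. The difference between the classes was not tested. With the own file of Control replicate 2, Wars had the largest cytosolic fold, with 46.5 and 52.3 FPKM in AIR + MPLA and 27.7 and 42.3 in Control. Both AIR + MPLA libraries were above both Control libraries (log2 fold 0.51, SE 0.24, limma adjusted p = 0.351). With the series-table values its log2 fold was 0.21, below those of Tarsl2 (0.29), Gars (0.27), Qars (0.26) and Sars (0.22), and after GC correction it was 0.43, below that of Gars (0.44). Gars came next with the own file, with 72.8 and 76.1 FPKM in AIR + MPLA and 48.7 and 59.9 in Control, a log2 fold of 0.46 (limma adjusted p = 0.326).

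Lars2 had the largest fold of all, at 1.22 (SE 0.33, limma adjusted p = 0.14), and passed only without AIR + MPLA replicate 3 (log2 fold 1.76, limma adjusted p = 0.0431). Yars2, for mitochondrial tyrosine, lay at the other end with 18.3 and 15.8 FPKM in AIR + MPLA and 20.6 and 24.2 in Control, a log2 fold of -0.37 (limma adjusted p = 0.382). Among the helper genes the lowest with the own file of Control replicate 2 were Sepsecs and Qrsl1. Sepsecs read 4.81 and 4.20 FPKM in AIR + MPLA and 6.70 and 5.17 in Control, a log2 fold of -0.33 (limma adjusted p = 0.412). Qrsl1 read 8.73 and 8.07 FPKM in AIR + MPLA and 10.97 and 9.11 in Control, a log2 fold of -0.23 (limma adjusted p = 0.48). Both Control libraries were above both AIR + MPLA libraries in these 3 genes, with the own file of Control replicate 2. With its series-table values, 4.08 FPKM for Sepsecs and 8.41 for Qrsl1, both helper genes overlapped. Their log2 folds were then -0.03 and -0.05, that of Yars2 was -0.44, and Gatb was the lowest helper gene at -0.34. T cell markers fell in 7 of 7 tested genes in this comparison, and crypt epithelium markers in 0 of 7.

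The GC content of transcripts moved with the folds across the whole table, so the comparison of the classes was repeated with that trend removed from each library. Tested genes were cut into 5 bins of equal size by GC content. In the lowest bin, 31 to 43.8%, the median log2 fold was 0.36 for AIR against Control and -0.61 for AIR + MPLA against AIR. In the highest bin, 55.4 to 72.8%, it was -0.35 and 0.48. Genes of the pathway ran along the same slope, with medians below those of all genes in irradiated against Control crypts, and above them with MPLA against AIR, in all 5 bins. Their median in the middle bin, where 13 of them sit, was -0.54 for AIR against Control, against -0.23 for all genes of that bin. For AIR + MPLA against AIR it was 0.60, against 0.23 for all genes there. The classes differ little in GC content, with medians of 49.42% for cytosolic, 48.23% for mitochondrial and 49.68% for all tested genes.

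**Figure D3:**
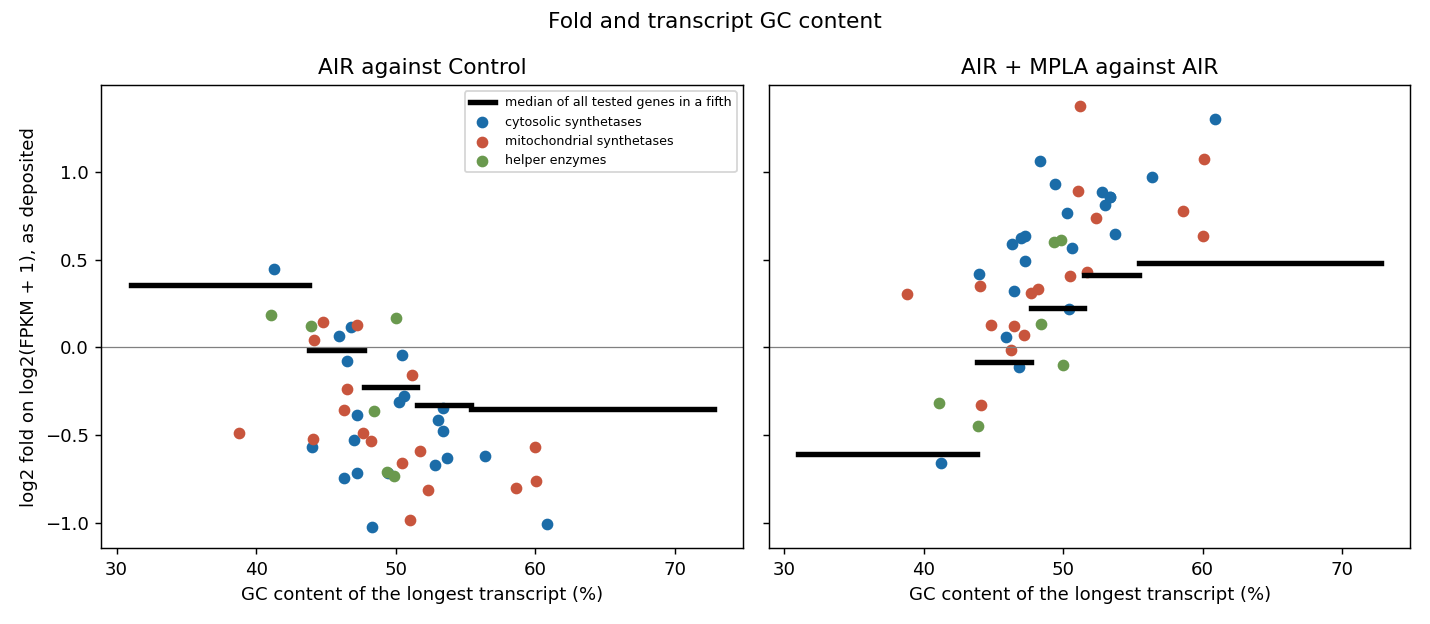
Log2 fold of each gene of the pathway (y) against the GC content of its longest transcript in percent (x), for AIR against Control and AIR + MPLA against AIR; black bars give the median of all tested genes in each of the 5 bins. Most synthetases lie below the bars for AIR over Control and above them for AIR + MPLA over AIR.

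With the trend removed, 12 genes of the pathway were lower in AIR than in Control and 0 higher (6 cytosolic, 5 mitochondrial and 1 helper), where 12.1% of all genes were lower and 11.7% higher. Called with and without the correction were Fars2, Farsb, Gatc, Iars, Kars, Lars, Tars2, Vars and Vars2. Aars2, Ears2, Farsa, Gatb, Pars2 and Sars2 were called only without it. Eprs and Mars2 were called with it and not without it. The cytosolic median was -0.26, the mitochondrial -0.36 and the helper median -0.18. Iars had a corrected log2 fold of -0.87 (limma adjusted p = 0.00626), Vars -0.64 (0.0151) and Tars2 -0.71 (0.0149). The largest corrected fall was that of Mars2, which charges methionine in mitochondria and has the lowest GC content of the pathway, 38.78%. It was at 5.44 and 7.03 FPKM in AIR and 8.996 and 9.14 in Control, with a log2 fold of -0.99 after correction (limma adjusted p = 0.0174) and -0.49 before (0.0706).

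For AIR + MPLA against AIR the correction left 10 genes higher and 0 lower (7 cytosolic, 3 mitochondrial), where 6.41% of all genes were higher and 4.92% lower. Farsa, Farsb, Iars, Kars, Lars, Sars2, Tars2 and Vars were called with and without it, and Eprs and Mars2 only with it. The 15 called only without it include Dars, Lars2, Wars, Aars and Gars. Corrected medians were 0.45 for cytosolic, 0.23 for mitochondrial and 0.14 for helper genes. Iars kept a corrected log2 fold of 0.94 (limma adjusted p = 0.0269) and Vars 0.80 (0.0269), while Wars had 0.43 (0.163) and Lars2 1.06 (0.0797). Eprs, which charges glutamate and proline in 1 protein, was at 19.2 and 16.2 FPKM with MPLA, 13.8 and 12.2 in AIR, and 23.3 and 16.6 in Control. Its corrected log2 folds were 0.69 with MPLA (limma adjusted p = 0.0304) and -0.68 in AIR against Control (0.0157).

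Part of the correction is a centring of libraries. When only the shape of the trend was removed and each library kept its median, 24 genes of the pathway were lower in AIR than in Control, where 27.1% of all tested genes were lower and 6.57% higher. In AIR + MPLA against AIR 26 were then higher, where 22.1% of all tested genes were higher and 2.54% lower. In AIR + MPLA against Control the correction left 0 called genes of the pathway. Over all genes 1.45% were higher and 1.43% lower (2.88% in all). In the pathway 5 genes had an unadjusted limma p under 0.05, a count without its share over all genes. The medians were 0.16 for cytosolic and -0.13 for mitochondrial genes. With the correction and the series-table Control replicate 2 together, 23 genes were lower and 2 higher in AIR than in Control, where 24.7% of all tested genes were lower and 23.7% higher. In AIR + MPLA against AIR, 23 were then higher and 1 lower, where 18.1% of all tested genes were higher and 16.6% lower.

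**Figure D4:**
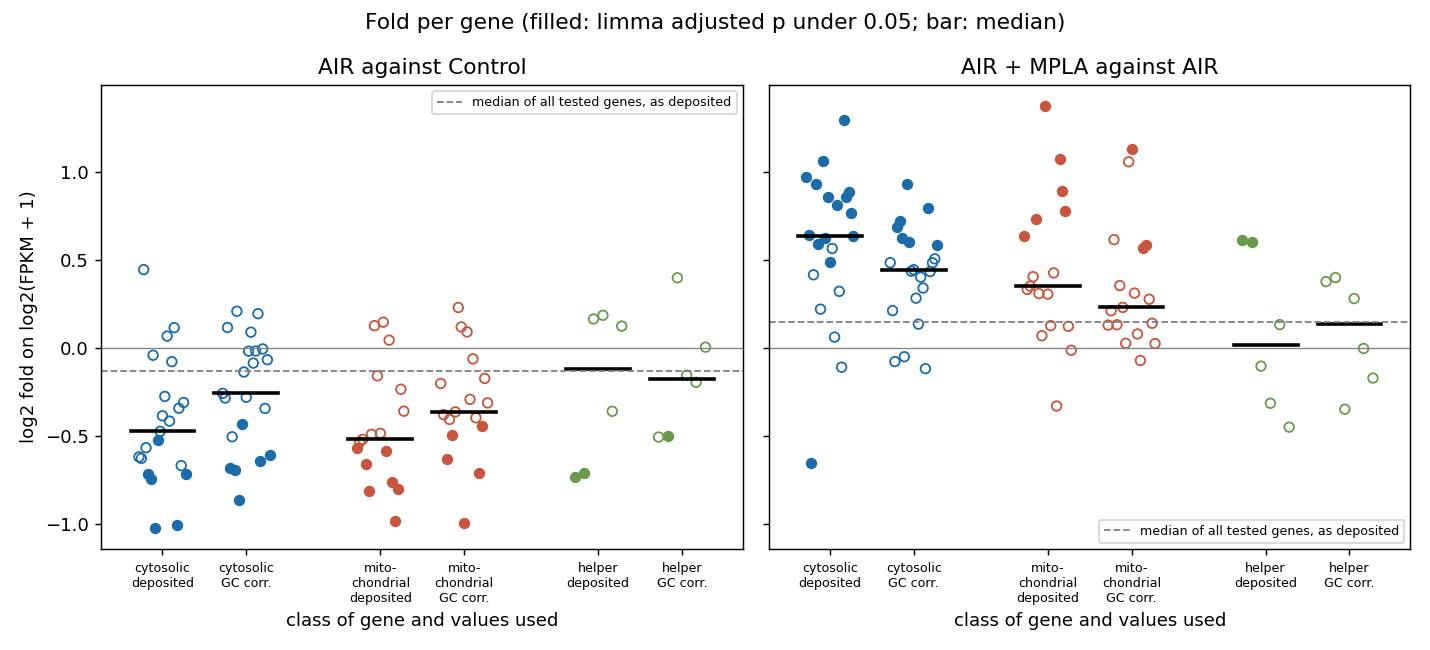
Log2 folds per gene by class, as deposited and after GC correction, for AIR against Control and AIR + MPLA against AIR; filled points passed limma, bars are class medians and the dashed line is the median of all tested genes. The cytosolic median goes to -0.26 and 0.45 after correction and the mitochondrial to -0.36 and 0.23.

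Cytosolic and mitochondrial enzymes of the same amino acid form 19 pairs, in which Eprs, Fars2 and Tars2 stand in more than 1. In AIR against Control both partners had a fold below 0 in 14 pairs, both above 0 in 1 and opposite signs in 4. Neither class was lower throughout: the cytosolic fold lay below its partner's in 8 pairs and above it in 11. For valine both partners fell, with log2 folds of -1.01 for Vars and -0.80 for Vars2. Isoleucine split, with -1.03 for Iars and 0.13 for Iars2, which did not pass. Threonine split the other way, with -0.08 for Tars, not called, and -0.99 for Tars2.

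In AIR + MPLA against AIR both partners lay above 0 in 15 pairs and on opposite sides in 4. The cytosolic fold was the higher one in 11 pairs and the lower in 8. Valine again had both called, at 1.30 for Vars and 0.78 for Vars2, and serine at 0.81 for Sars and 1.08 for Sars2. Tyrosine split, with 0.88 for Yars and -0.01 for Yars2, as did isoleucine, with 1.06 for Iars and 0.07 for Iars2. In AIR + MPLA against Control the cytosolic fold was above its partner's in 14 of 19 pairs, and in 16 after GC correction. Hars ends at 36783205 and Hars2 begins at 36783202 on chromosome 18, so their spans share only a few bases. No source used here gives the strand setting of the counting, so a read across that junction could count for either gene.

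**Figure D5:**
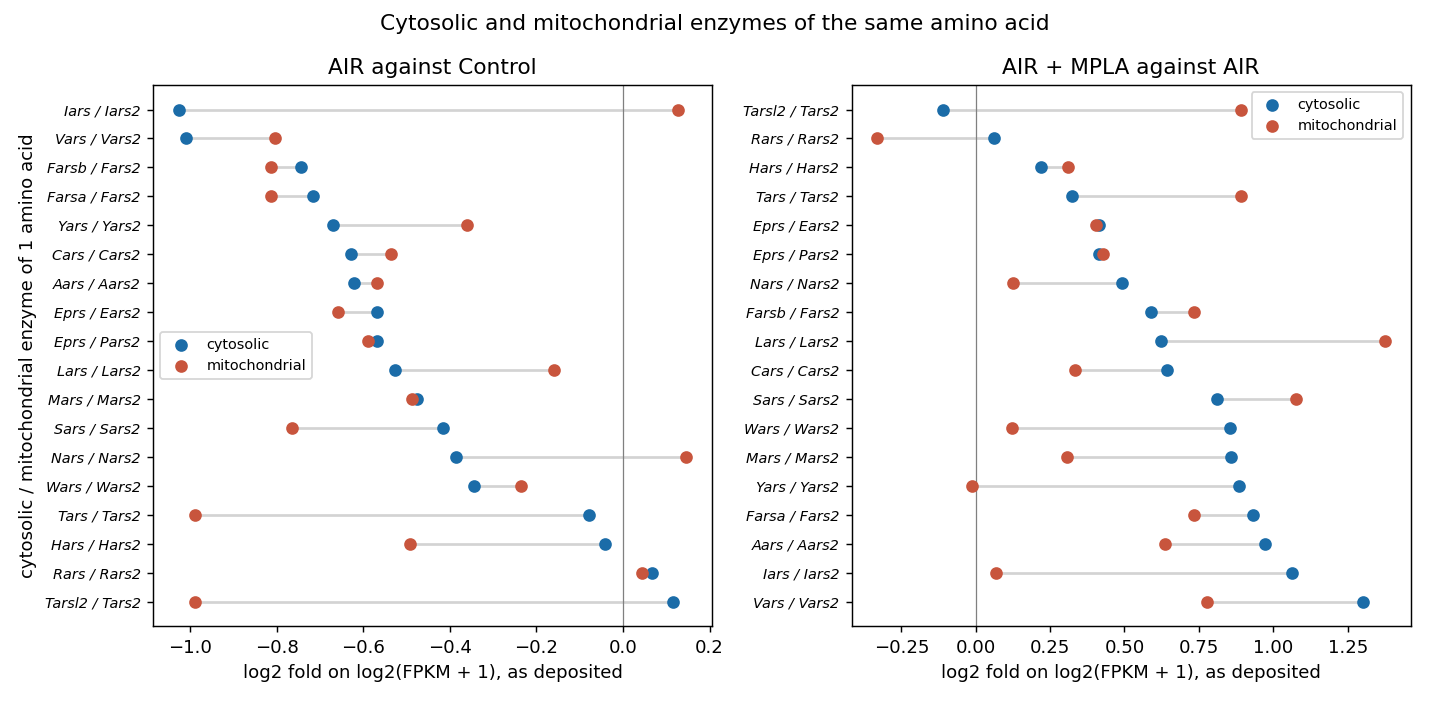
Log2 folds as deposited of the cytosolic (blue) and mitochondrial (red) synthetase of each amino acid, joined by a line and with 1 pair not shown, for AIR against Control and AIR + MPLA against AIR. The widest gaps in AIR against Control are those of Iars and Iars2 (-1.03 and 0.13) and Tarsl2 and Tars2 (0.12 and -0.99).

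The 5 genes with the ATF4 element in the promoters printed above had log2 folds of 0.97 (Aars), 0.77 (Gars), 1.06 (Iars), 0.32 (Tars) and 0.88 (Yars) in AIR + MPLA against AIR. All but Tars were called, where 14 of the 21 cytosolic synthetases and 19.5% of all tested genes were called higher. After GC correction the folds were 0.49 (Aars), 0.51 (Gars), 0.94 (Iars), 0.34 (Tars) and 0.48 (Yars), and only Iars was called. In AIR against Control the folds were -0.62 (Aars), -0.31 (Gars), -1.03 (Iars), -0.08 (Tars) and -0.67 (Yars), of which Iars was called. There 6 of the 21 cytosolic synthetases and 18.7% of all tested genes were called lower. GC correction gave -0.26 (Aars), -0.07 (Gars), -0.87 (Iars), -0.02 (Tars) and -0.34 (Yars), with Iars again the only one called. A part of the element in these folds was not tested.

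The scaffold of the multisynthetase complex has 3 proteins, and their genes went different ways. Aimp2 had 34.8 and 39.2 FPKM in AIR + MPLA, 17.7 and 17.0 in AIR, and 28.4 and 39.8 in Control. Like Vars, it fell in AIR (log2 fold -0.92, limma adjusted p = 0.0173) and rose with MPLA (1.05, limma adjusted p = 0.0176), also after GC correction. Aimp1 had 54.7 and 51.3 FPKM in AIR + MPLA, 74.6 and 86.7 in AIR, and 51.0 and 47.7 in Control. It rose in AIR (log2 fold 0.69, limma adjusted p = 0.0211) and fell with MPLA (-0.59, limma adjusted p = 0.0321), and after GC correction its log2 folds were 0.09 and 0.35, not called. Eef1e1 fell with MPLA, to 21.7 and 19.9 FPKM, against 30.5 and 35.8 in AIR (log2 fold -0.64, limma adjusted p = 0.0276), and was not called after GC correction. Among the 8 synthetases of the complex 3 fell in AIR, and 4 rose and 1 (Dars) fell with MPLA. Of the 13 cytosolic synthetases outside it, 3 fell in AIR and 10 rose with MPLA. Over all tested genes 18.7% were lower in AIR, and 19.5% higher and 9.9% lower with MPLA. After GC correction 4 of the 8 fell in AIR, and 4 rose and 0 fell with MPLA. Outside the complex 2 then fell and 3 rose, where 12.1% of all genes fell in AIR and 6.41% rose with MPLA.

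Other genes of tRNA supply were counted in the same fits, and their counts stand against the shares over all tested genes. As deposited these were 18.7% lower and 8.05% higher in AIR against Control, and 19.5% higher and 9.9% lower with MPLA. After GC correction they were 12.1% lower and 11.7% higher in AIR, and 6.41% higher and 4.92% lower with MPLA. In the series-table fit 37.3% were lower and 25% higher in AIR. Whether the shares called in these lists differ from those of the pathway was not tested. Of 37 tested tRNA-modifying enzymes 7 fell in AIR against Control, led by Osgep (log2 fold -1.02) and Pus1 (-0.90), and with MPLA 7 rose and 2 fell. After GC correction 1 rose and 5 fell in AIR, and 1 rose and 2 fell with MPLA. With the series-table Control replicate 2, 5 rose and 16 fell in AIR. Of 22 genes of tRNA splicing and processing 3 rose and 3 fell in AIR, and 4 rose and 3 fell with MPLA. After GC correction 1 rose and 1 fell in AIR, and 1 rose and 2 fell with MPLA, and in the series-table fit 4 rose and 9 fell in AIR. Fam98b, of the tRNA ligase complex, had 20.7 and 20.7 FPKM in AIR + MPLA, 12.3 and 12.3 in AIR, and 29.2 and 26.1 in Control. Trnt1, which adds the CCA end that synthetases charge, went the other way. It had 4.75 and 3.95 FPKM in AIR + MPLA, 13.9 and 14.0 in AIR, and 7.63 and 3.71 in Control. Its log2 fold was 1.23 in AIR and -1.49 with MPLA. After GC correction no gene of that list had a log2 fold above 0.84 in AIR or below -0.82 with MPLA. Of 23 genes of RNA polymerase III and its factors, which transcribe tRNA genes, 4 fell in AIR, and 2 rose and 3 fell with MPLA. After GC correction 2 fell in AIR and 2 fell with MPLA, while in the series-table fit 5 rose and 9 fell in AIR. Of 7 genes of editing factors that clear mischarged tRNA, 1 rose and 1 fell in AIR, and 2 rose with MPLA. After GC correction 3 rose in AIR and 0 were called with MPLA, and in the series-table fit 2 rose and 2 fell in AIR.

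Mitochondrial translation factors fell in 4 of 12 cases in AIR (Tufm, Tsfm, Mrrf and Lrpprc), and 4 rose and 2 fell with MPLA. After GC correction 1 rose and 2 fell in AIR, and 2 rose with MPLA, and in the series-table fit 3 rose and 7 fell in AIR. Tufm, the elongation factor that brings charged tRNA to the mitochondrial ribosome, had 99.9 and 107.6 FPKM in AIR + MPLA, 33.6 and 39.3 in AIR, and 75.1 and 111.2 in Control. Its AIR libraries were the lowest by a wide margin (log2 fold -1.31 in AIR and 1.49 with MPLA, limma adjusted p = 0.011 and 0.0153). Of 21 cytosolic translation factors 2 rose and 2 fell in AIR, and 8 rose and 2 fell with MPLA. After GC correction 2 rose in AIR and 0 of the 21 were called with MPLA, and in the series-table fit 3 rose and 9 fell in AIR. For both lists the shares over all tested genes are those given for the genes of tRNA supply.

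Of 27 tested ATF4 targets outside the synthetases, 4 rose and 5 fell in AIR against Control, where 8.05% of all tested genes rose and 18.7% fell. The balance turned with the values used. After GC correction 5 rose and 2 fell (median log2 fold 0.33), where 11.7% of all genes rose and 12.1% fell. In the series-table fit 3 rose and 14 fell of 28 tested (median -0.37), where 25% of all genes rose and 37.3% fell. With MPLA 9 rose and 0 fell (19.5% and 9.9% of all tested genes), with 3 rising and 1 falling after GC correction (6.41% and 4.92%). They include the amino acid transporter Slc7a1, at 19.0 and 19.2 FPKM in AIR + MPLA, 7.76 and 6.12 in AIR, and 19.4 and 20.3 in Control. Aldh18a1, of proline synthesis, had 47.0 and 48.4 FPKM in AIR + MPLA, 16.8 and 19.4 in AIR, and 54.7 and 61.1 in Control. Psat1, of serine synthesis, did not share the low AIR value: it was at 33.3 and 29.8 FPKM in AIR + MPLA, 24.9 and 23.3 in AIR, and 9.88 and 12.5 in Control. It was called in AIR + MPLA against Control (log2 fold 1.43, limma adjusted p = 0.0176), alone of the list as deposited. There 0.643% of all tested genes rose. After GC correction 3 of the list rose (1.45% of all genes), and in the series-table fit 4 rose and 2 fell (5.54% and 5.11%). Among 14 genes of MYC and its targets, Myc itself had 22.4 and 19.3 FPKM in AIR + MPLA, 8.88 and 8.98 in AIR, and 21.9 and 22.0 in Control. It fell in AIR (log2 fold -1.21, limma adjusted p = 0.00574) and rose with MPLA (1.14, limma adjusted p = 0.0153), while over the list 1 rose and 4 fell in AIR, and 3 rose and 2 fell with MPLA. After GC correction 1 rose and 2 fell in either comparison, and in the series-table fit 3 rose and 6 fell in AIR. The shares over all tested genes are those given for the ATF4 targets.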

How the data were processed

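RNA-seq libraries of mouse intestinal crypts were made from Trizol RNA with the Illumina TruSeq RNA kit, per the labels' protocols. The authors deposited FPKM per gene, in a table of the series and in 1 file per sample whose value column is headed as counts. The submitters' processing notes name Trimmomatic, HISAT2, Cufflinks, HTSeq and GRCm38.p6; no source used here gives versions or a strand setting. Read depth is unknown, which leaves counting error without an interval.

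Groups came from the sample titles. Values of log2(FPKM + 1) of all 6 libraries were fitted with limma 3.58.1 in R 4.3.3, with 1 mean per group and trended, robust variances, over 10415 genes that reached 1 FPKM in 2 or more libraries. P-values were adjusted by Benjamini-Hochberg over all of them, with a threshold of 0.05. The code was tested on simulated data. Transcript GC content was read from the longest GENCODE M21 transcript of each gene, for 21114 of 21878 genes. For the GC correction each library's lowess trend (span 0.3) of the deviation from the gene mean was removed, and 10335 genes were tested. Promoters came from RefSeq (GRCm38.p6).

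The pathway, the other gene lists and the markers were chosen with earlier results of these data known. Named outside the pathway are up to 3 called genes with the smallest p per list and comparison, the members of short lists, and marker genes. The alternatives were other scalings, filters and pseudocounts, GC correction, the series-table values of Control replicate 2, only the libraries compared, replicate blocks and leaving out each library. Values of 1 gene of the pathway are not reported here; it is included in the counts and medians.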

Additional observations from a re-analysis of the deposited data

How the results depend on the processing

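The direction of both synthetase medians in AIR against Control and in AIR + MPLA against AIR held under every alternative run, but the calls changed with the libraries left out and with scaling. For AIR against Control, 6490 genes were called with Control replicate 2 taken from the series table (4 of the pathway higher, 29 lower, cytosolic median -0.59). Adding GC correction gave 4998 genes, 2 higher and 23 lower in the pathway, and medians of -0.362 (cytosolic) and -0.353 (mitochondrial). GC correction alone gave medians of -0.258 and -0.364, and median-ratio scaling -0.314 and -0.363. All genes split into 838 higher and 1948 lower as deposited, 1228 and 1124 with median-ratio scaling, and 1212 and 1249 with GC correction. Fitting only the 4 libraries compared gave 1427 genes, 458 higher and 969 lower, and 7 of the pathway lower. With the GC trend removed and library medians kept, a choice made after seeing the data, 24 were lower.

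For AIR + MPLA against AIR, GC correction gave 1170 genes, 10 of the pathway higher and 0 lower, and medians of 0.445 and 0.231. The series-table values gave 5724 genes and 3 of the pathway lower, and with GC correction medians of 0.444 and 0.229. Median-ratio scaling gave 11 higher and medians of 0.474 and 0.205, and upper-quartile scaling 13 higher, 0.486 and 0.216, with 1198 genes higher and 1267 lower in all. Without a filter 1181 genes were called (887 higher and 294 lower), 11 of the pathway higher and 0 lower. With only the 4 libraries compared 4899 genes were called (3029 higher and 1870 lower), 2 of the pathway lower. With library medians kept, 0 were lower. Whether replicate numbers pair the samples could not be decided. Deviations of same-numbered libraries correlated at -0.33 across genes, but 2 pairs give only 1 difference per group, and genes are not replicates. A replicate block gave 21 of the pathway higher and 1 lower, where 2177 of all 10415 tested genes were higher and 1385 lower. The replicate block with GC correction gave 0 genes, 0 of the pathway higher and 0 lower, and medians of 0.443 and 0.228. The crossed pairing, chosen after seeing the data, gave 5722 genes (3479 higher and 2243 lower) and 2 of the pathway lower.

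For AIR + MPLA against Control, 298 genes were called with GC correction, 297 with library medians kept, 73 without a filter, 57 with at least 5 FPKM and 43 with only the 4 libraries compared. The series-table values gave 1108 genes, 1 of the pathway higher and a cytosolic median of 0.0782. With GC correction as well they gave 1277, 1 and 0.0813. The cause of these shifts was not tested.

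Leaving out each library in turn gave 124 to 4329 genes for AIR against Control, 0 to 4893 for AIR + MPLA against AIR and 13 to 1645 for AIR + MPLA against Control. Of the pathway, 0 to 1, 0 to 25 and 0 to 1 were higher in these comparisons, and 0 to 21, 0 to 2 and 0 to 0 lower. The cytosolic median ran from -0.559 to -0.345, 0.578 to 0.679 and 0.118 to 0.286. The mitochondrial median ran from -0.649 to -0.361, 0.212 to 0.511 and -0.152 to -0.0302. A lone library left in a group was assumed to vary like the other groups. GC correction changed the sign of the uncalled folds of Hars, Pstk, Lars2 and Rars2 in AIR against Control and of Hars, Pstk, Qrsl1 and Yars2 in AIR + MPLA against AIR, and Aimp1, outside the pathway, went to 0.35 with MPLA, against -0.59 as deposited.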
